A study of Mus musculus with 3 samples.

Results

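The heat shock chaperone genes described here are 10 mouse genes: the HSP70 genes Hspa8, Hspa1a, Hspa1b and Hspa5, the HSP110 gene Hsph1, the HSP90 genes Hsp90aa1 and Hsp90ab1, the J-domain gene Dnajb1, the small heat shock gene Hspb1, and Hsf1, which encodes the transcription factor that drives the heat shock response. They were found by gene symbol in the names of the read-based transcript tables and joined to the gene tables by gene identifier, which gave 10 of 55536 annotated genes. All 10 had counts in every library. Chaperones bind proteins that are not fully folded. HSP70 works in cycles of ATP binding with a J-domain partner and a nucleotide exchange factor, and passes some of its clients to HSP90. HSF1 is held inactive by chaperones in unstressed cells, and once released it binds repeats of the unit NGAAN, called heat shock elements, in the promoters of inducible chaperone genes.

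The material came from macrophages grown from bone marrow of C57BL/6J mice. All 3 libraries belong to the same group. The cells had been exposed to Lipid A, the part of bacterial endotoxin sensed by Toll-like receptor 4, at 100 ng/ml for 12 hours, kept without it for 12 hours, and given 100 ng/ml again for 50 minutes. RNA bound to chromatin, which is rich in transcripts still being made, was freed of ribosomal RNA and sequenced. The starting amount of RNA was 1 µg in replicate 1, 250 ng in replicate 2 and 500 ng in replicate 3. The libraries are numbered as biological replicates but carry the same donor label, and separate animals or cultures are not stated, so the spread between them may be technical. Untreated or heated cells were not analysed here, so the values are levels in 1 condition and comparisons between genes of the same library.

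The libraries held 13897176 to 19597343 expected counts in the alignment-based tables and 20743071 to 34961536 in the read-based tables. Levels are given as TPM, a relative abundance that corrects for transcript length, and come from the alignment-based tables unless said otherwise. Genes that reached 1 TPM in each of the 3 libraries are called detected. The macrophage label was checked with 10 marker genes, which were all detected, at a summed 1330 to 1486 TPM per library. None of 8 neutrophil, 5 B cell, 5 T and natural killer cell, 5 dendritic cell and 5 stromal and endothelial markers was detected, and each of these lists summed to between 0.02 and 3.56 TPM. In the read-based quantification, 2 of these markers passed, the dendritic cell marker Zbtb46 at 1.26 to 1.56 TPM and the endothelial marker Pecam1 at 3.24 to 11.0 TPM, and the stromal and endothelial list summed to 3.70 to 14.1 TPM. In bulk samples such as these, fewer cells of a type and less RNA per cell cannot be told apart.

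By that rule 8 of the 10 heat shock genes were detected, where 39.2% of 22028 protein-coding genes were. The constitutive chaperones Hspa8, Hspa5 and Hsp90ab1 had the highest levels. Hspa1a, Hspa1b, Dnajb1 and Hspb1, known as heat-inducible, had means between 0.910 and 1.82 TPM. Hsp90aa1, the more inducible gene of the HSP90 pair, was higher, at a mean of 18.8 TPM, and Hsph1 was at 2.57 TPM. The median level of the 10 genes was 9.12 TPM, and that of all protein-coding genes was 0.367 TPM. Taken on the log2(TPM + 1) scale, the medians were 2.95 and 0.45. All 10 passed in the read-based tables, where 49.7% of protein-coding genes did. The 10 genes together took 0.0513%, 0.0341% and 0.0450% of the expected counts in replicates 1, 2 and 3.

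**Figure D1:**
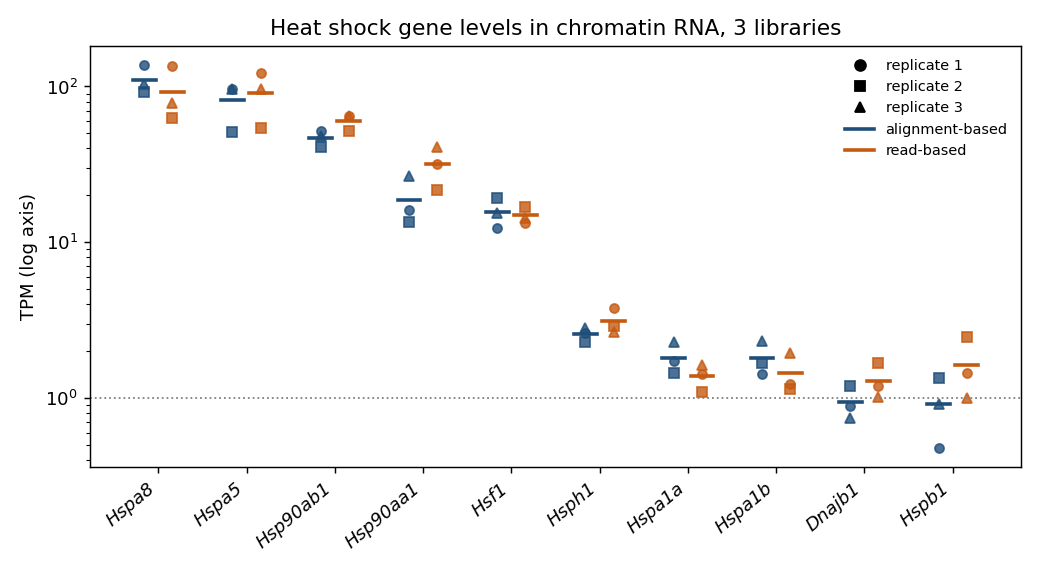
Level of each heat shock gene in TPM (log axis), 1 point per library with the symbol giving the replicate, from the alignment-based tables (blue) and the read-based tables (orange); horizontal bars are means of the 3 libraries and the dotted line marks 1 TPM. Alignment-based means run from 111 TPM for Hspa8 to 0.910 for Hspb1, with a gap between Hsf1 at 15.7 and Hsph1 at 2.57.

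Hspa8 encodes HSC70, the HSP70 that cells keep at a high level without stress. The gene (ENSMUSG00000015656.17) lies on the plus strand of mm10 at chr9:40800984-40810087. Its level was 137, 91.8 and 103 TPM in replicates 1, 2 and 3, from 3289, 2872 and 2917 expected counts. Replicate 1 was the highest, and its deposited credible interval, 123 to 140 TPM, did not meet those of replicate 2, 82.2 to 95.3, and replicate 3, 92.7 to 106. The mean was 111 ± 23.7 TPM (SD, n = 3), rank 514 of 22028 protein-coding genes. In the read-based tables the level was 135, 63.1 and 77.8 TPM, so replicate 1 was again the highest and the mean was 91.9 ± 37.8 (SD, n = 3). Over the 6 values, 3 libraries in both kinds of table, the protein-coding genes nearest to Hspa8 in log2(TPM + 1) by Euclidean distance were Gbp8 at 0.33, Oas3 at 0.46 and Fabp5 at 0.47.

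The chromatin RNA assigned to Hspa8 was spread over several annotated transcripts. The gene has 10, of which 3 are coding and 4 are annotated as keeping an intron. Coding transcripts held 37.0%, 35.2% and 45.8% of the gene's TPM in replicates 1, 2 and 3, a mean of 39.4 ± 5.68% (SD, n = 3). Retained-intron transcripts held 60.4%, 53.2% and 44.2%. The transcript with the most counts was a retained-intron transcript of 3158 bases, with 1568, 1414 and 1073 expected counts. The main coding transcript, of 2019 bases, had 1199, 686 and 932. Another coding transcript, of 2394 bases, was at 3.01 TPM in replicate 1 and at 10.8 and 15.6 in replicates 2 and 3, so the division between these coding forms differed between libraries. Reads from an unfinished, unspliced precursor and from a finished transcript that keeps the intron cannot be told apart in these tables.

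The introns of Hspa8 carry small nucleolar RNAs of the C/D box class, which guide chemical modification of ribosomal RNA. The sequences of Snord14c, Snord14d and Snord14e are shown because they lie on the plus strand inside that transcript of 3158 bases and bear on how reads there were assigned. They are GENCODE M21 sequences, at chr9:40803583-40803668, chr9:40803995-40804080 and chr9:40804748-40804837 in mm10, with the C box and the D box in capitals.
Snord14c: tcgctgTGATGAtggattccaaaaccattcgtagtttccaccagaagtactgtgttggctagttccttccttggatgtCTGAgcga
Snord14d: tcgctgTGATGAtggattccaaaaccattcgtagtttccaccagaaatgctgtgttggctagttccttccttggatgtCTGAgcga
Snord14e: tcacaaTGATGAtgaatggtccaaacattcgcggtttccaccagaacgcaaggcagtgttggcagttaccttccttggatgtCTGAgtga
All 3 had 0 counts and an effective length of 0 in the alignment-based tables, so a level there is not defined. In the read-based tables Snord14c had 55.9, 71.2 and 65.9 estimated counts and Snord14d had 70.3, 109 and 79.1. Snord14e had no more than 4.04 counts in any library. Since the read-based effective lengths were only 15.3 to 17.3 bases, those counts became 144 to 209 TPM for Snord14c and 177 to 263 TPM for Snord14d, above the 63.1 to 135 TPM of Hspa8 itself. These RNAs are 86 to 90 bases long, so such levels rest on the length correction.

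Hspa1a and Hspa1b encode the heat-inducible HSP70, and lie near each other on the minus strand of chromosome 17, each as 1 exon with no intron. Hspa1a (ENSMUSG00000091971.3, chr17:34969190-34972156) was at 1.72, 1.45 and 2.28 TPM in replicates 1, 2 and 3, a mean of 1.82 ± 0.423 (SD, n = 3). Hspa1b (ENSMUSG00000090877.3, chr17:34956436-34959238) was at 1.43, 1.68 and 2.31 TPM, a mean of 1.81 ± 0.453 (SD, n = 3). Both genes were highest in replicate 3. The difference between them, 0.0067 ± 0.15 in log2(TPM + 1), was within the spread between libraries (exact permutation p = 1). Their longest open reading frames matched at 1918 of 1926 aligned bases, or 99.6%, so the split of reads between the copies is uncertain. Hspa1a took 56.1%, 47.9% and 51.3% of the counts of the pair in the alignment-based tables and 55.4%, 50.2% and 47.3% in the read-based ones. The sum of both was 3.15, 3.13 and 4.59 TPM, and 2.67, 2.23 and 3.58 TPM in the read-based tables. A sum of TPM depends on that split only through the transcript lengths, 2967 bases for Hspa1a and 2803 for Hspa1b.

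The promoters of the pair are almost the same as well. They are printed because the 10 bases in capitals form a short heat shock element, the unit NGAAN followed by its reverse complement, at the same place in both. The sequences are the 250 bases before the annotated start, from RefSeq on GRCm38.p6, minus strand, at chr17:34972157-34972406 for Hspa1a and chr17:34959239-34959488 for Hspa1b.
Hspa1a promoter: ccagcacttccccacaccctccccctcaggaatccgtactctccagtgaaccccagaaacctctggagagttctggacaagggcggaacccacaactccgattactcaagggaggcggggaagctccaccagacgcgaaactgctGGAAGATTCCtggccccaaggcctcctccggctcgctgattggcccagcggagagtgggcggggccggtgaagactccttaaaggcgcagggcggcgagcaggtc
Hspa1b promoter: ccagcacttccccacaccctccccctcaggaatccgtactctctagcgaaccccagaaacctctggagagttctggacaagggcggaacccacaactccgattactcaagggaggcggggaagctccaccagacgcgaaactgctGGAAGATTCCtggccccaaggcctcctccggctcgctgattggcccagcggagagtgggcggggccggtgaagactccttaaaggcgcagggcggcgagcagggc
The promoters were identical at 247 of 250 bases, or 98.8%. The element GGAAGATTCC begins 105 bases before the start of either gene. The RefSeq promoter table held 6 of the 10 genes. Its windows of 300 bases, 250 before and 50 after the start, were searched on both strands for 3 adjoining units (NGAANNTTCNNGAAN or NTTCNNGAANNTTCN), which 196 of 32851 windows, or 0.597%, contained. Of the 6 genes, Hsph1 had such a match, and Hspa1a, Hspa1b, Hspb1, Hspa5 and Dnajb1 had none in this window. With 2 adjoining units (NGAANNTTCN or NTTCNNGAAN), a search added after seeing the data that also finds every match of 3 units, 4 of the 6 genes had a match, against 15.0% of all windows. Hsph1 had matches in 2 windows, and Hspa1a and Hspa1b share their element. The count of genes and the share of windows are therefore not like measures. A match describes letters and is not a measured binding site.

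Set side by side in the same libraries, the constitutive Hspa8 stood far above the inducible pair. Hspa8 exceeded the sum of Hspa1a and Hspa1b by 5.06, 4.49 and 4.22 in log2(TPM + 1) in replicates 1, 2 and 3, a mean of 4.59 ± 0.43 (SD, n = 3). Adding 1 shrinks differences of low genes, and the ratio of TPM itself, as a geometric mean over the libraries, was 30.6-fold. Folds below are such ratios. The difference was positive in 3 of 3 libraries and larger than its spread. An exact two-sided sign-flip permutation test gave p = 0.25, the smallest p that 3 libraries allow, and 0.25 after Benjamini-Hochberg adjustment over the 4 pairs compared. When only coding transcripts were summed, the mean difference was 3.25.

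Hspa5 encodes BiP, the HSP70 of the endoplasmic reticulum and a marker of the unfolded protein response. The gene (ENSMUSG00000026864.13, chr2:34771970-34777547, plus strand) was at 96.7, 50.8 and 96.6 TPM in replicates 1, 2 and 3, a mean of 81.3 ± 26.5 (SD, n = 3) from 1646 to 3251 expected counts. Replicate 2 was the low one, with a deposited credible interval of 44.5 to 53.6 TPM, against 83.8 to 97.6 in replicate 1 and 85.3 to 97.0 in replicate 3. The read-based tables gave 122, 54.2 and 96.5 TPM, again with replicate 2 the lowest. Coding transcripts held 62.1 ± 9.99% of the gene's TPM (SD, n = 3) and 93.0 ± 3.63% of its counts, since its retained-intron transcripts are short. Only 0.0234% of its sequence, cut into words of 31 bases, was found in another gene on the same strand.

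Hspa8 exceeded Hspa5 by 0.50, 0.84 and 0.09 in log2(TPM + 1), a mean of 0.48 ± 0.38 (SD, n = 3) or 1.40-fold, with the same sign in 3 of 3 libraries (exact permutation p = 0.25, adjusted p = 0.25 over 4 pairs). That order was not kept by every way of counting. The mean difference was 0.015 in the read-based tables and -0.17 with only coding transcripts summed.

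Hsph1 encodes HSP110, a relative of HSP70 that helps it exchange nucleotide. The gene (ENSMUSG00000029657.15, chr5:149614287-149636376, minus strand) was at 2.60, 2.28 and 2.82 TPM in replicates 1, 2 and 3, a mean of 2.57 ± 0.272 (SD, n = 3) from 72 to 102 expected counts. Its coefficient of variation, 10.6%, was the smallest of the 10 genes in the alignment-based tables only. In the read-based tables Hsph1 was at 3.11 ± 0.595 TPM (SD, n = 3). Relative to its mean, Hsf1 varied less there, at 14.9 ± 1.87 TPM (SD, n = 3). Retained-intron transcripts held 82.7%, 59.8% and 71.3% of its TPM. The deposited posterior mean TPM was higher, at 4.28, 4.44 and 4.85, and in replicate 2 the TPM of 2.28 lay below the credible interval of 2.36 to 7.17. The 3-unit element found for this gene was ATTCTGGAAAGTTCT at chr5:149636287-149636301 on the minus strand of GRCm38.p6, which begins 14 or 35 bases after the start, depending on which of the RefSeq starts is used. No word of 31 bases of Hsph1 was found in another gene.

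Dnajb1 encodes HSP40, the J-domain partner that stimulates the ATPase of HSP70. The gene (ENSMUSG00000005483.10, chr8:83608193-83612653, plus strand) was at 0.89, 1.19 and 0.74 TPM in replicates 1, 2 and 3, a mean of 0.940 ± 0.229 (SD, n = 3) from 34, 59 and 34 expected counts. Only replicate 2 passed 1 TPM, so the gene was not called detected in these tables. In the read-based tables it was at 1.19, 1.68 and 1.02 TPM and did pass.

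Hsp90ab1 and Hsp90aa1 encode the constitutive and the more inducible form of cytosolic HSP90, which matures kinases and steroid receptors. Hsp90ab1 (ENSMUSG00000023944.14, chr17:45567775-45573271, minus strand) was at 52.0, 40.8 and 48.25 TPM in replicates 1, 2 and 3, a mean of 47.0 ± 5.69 (SD, n = 3). Hsp90aa1 (ENSMUSG00000021270.13, chr12:110690605-110702728, minus strand) was at 16.2, 13.5 and 26.6 TPM, a mean of 18.8 ± 6.89 (SD, n = 3). In TPM over all transcripts the values of the genes did not overlap, and Hsp90ab1 was higher in every library. The deposited credible interval of Hsp90aa1 in replicate 3, 24.0 to 31.9 TPM, did not meet those of replicate 1, 13.9 to 22.6, or replicate 2, 12.0 to 19.7. Hsp90ab1 exceeded Hsp90aa1 by 1.62, 1.53 and 0.84 in log2(TPM + 1), a mean of 1.33 ± 0.43 (SD, n = 3) or 2.60-fold (exact permutation p = 0.25, adjusted p = 0.25 over 4 pairs). The mean difference was 0.61 with only coding transcripts summed and 0.60 as log2(CPM + 1), that is, on CPM, each gene's share of the library's counts without length correction. By either of these the values of the genes overlapped, though Hsp90ab1 stayed higher in every library. Hsp90aa1 in replicate 3 was at 16.5 coding TPM and 46.7 CPM. Hsp90ab1 in replicate 2 was at 14.4 and 41.9.

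Retained-intron transcripts weighed more in Hsp90ab1 than in most of the other genes by TPM. They held 68.0%, 64.8% and 63.6% of the TPM of Hsp90ab1 in replicates 1, 2 and 3, and 30.3 ± 3.53% of its counts (SD, n = 3). The 3 of them are 685 to 797 bases long and were at 9.59 to 11.2 TPM each on average, below the 16.2 ± 1.65 TPM (SD, n = 3) of the coding transcript of 2520 bases. In Hsp90aa1, retained-intron transcripts held 43.1 ± 5.42% of TPM and 12.9 ± 2.09% of counts (SD, n = 3). The coding transcript of 3281 bases was at 7.92, 6.63 and 12.0 TPM. Another coding transcript, of 2852 bases, was at 1.40, 0.01 and 4.48 TPM in the alignment-based tables and at 10.3, 4.68 and 10.1 in the read-based ones, so the tables divided these overlapping transcripts differently.

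Hspa8 exceeded Hsp90ab1 by 1.38, 1.15 and 1.08 in log2(TPM + 1), a mean of 1.20 ± 0.16 (SD, n = 3) or 2.33-fold, in 3 of 3 libraries (exact permutation p = 0.25, adjusted p = 0.25 over 4 pairs). The mean difference was 0.53 in the read-based tables and 1.81 as log2(CPM + 1).

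Hspb1 encodes HSP25, a small heat shock protein that holds unfolded proteins without using ATP. The gene (ENSMUSG00000004951.10, chr5:135887919-135889563, plus strand) was at 0.48, 1.34 and 0.91 TPM in replicates 1, 2 and 3, a mean of 0.910 ± 0.430 (SD, n = 3). These levels rest on 5, 16 and 10 expected counts, and 3 counts would give 0.288, 0.251 and 0.273 TPM. The deposited credible intervals, 0.199 to 1.09, 0.752 to 2.03 and 0.461 to 1.57 TPM, overlapped. Whether Hspb1 differed between libraries was not tested. In the read-based tables Hspb1 was at 1.45, 2.46 and 1.00 TPM, with a mean 1.80 times the alignment-based mean. Its promoter is shown because it has a pair of short elements close together, in capitals. The 50 bases are on the plus strand of GRCm38.p6 at chr5:135887789-135887838, from RefSeq.
Hspb1 promoter: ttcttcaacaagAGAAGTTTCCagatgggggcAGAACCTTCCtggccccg
The elements AGAAGTTTCC and AGAACCTTCC begin 118 and 98 bases before the start.

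Hsf1 encodes heat shock factor 1, the regulator of the inducible genes above. The gene (ENSMUSG00000022556.11, chr15:76477422-76501913, plus strand) was at 12.3, 19.3 and 15.4 TPM in replicates 1, 2 and 3, a mean of 15.7 ± 3.50 (SD, n = 3) from 267, 594 and 389 expected counts. The deposited credible intervals of replicate 1, 11.0 to 15.5 TPM, and replicate 2, 17.6 to 22.2, did not meet. It has 16 annotated transcripts, the most of the 10 genes. Coding transcripts held 32.6%, 16.1% and 30.4% of its TPM, which came to 3.93 ± 0.793 TPM (SD, n = 3). Retained-intron transcripts held 52.8 ± 4.13% and transcripts marked for nonsense-mediated decay 18.9 ± 6.10% (SD, n = 3). The transcript with the highest mean was an unspliced stretch of 3133 bases annotated as retained intron, at 2.04, 4.02 and 2.20 TPM. The read-based gene level was 13.3, 16.9 and 14.4 TPM, with the same order of libraries.

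**Figure D2:**
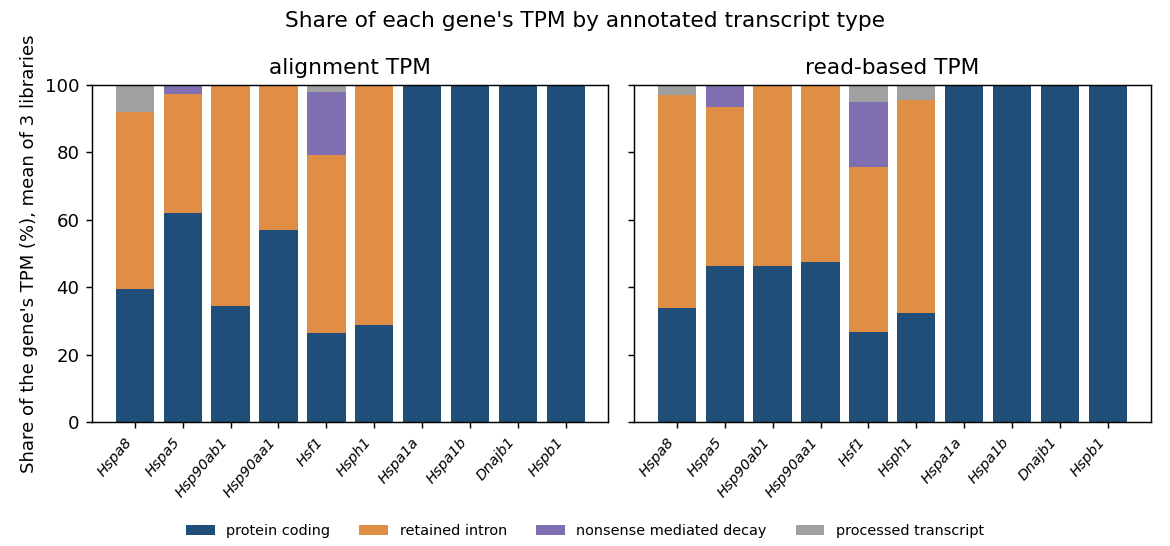
Share of each gene's TPM (percent, mean of 3 libraries) held by each annotated transcript type, in the alignment-based tables (left) and the read-based tables (right). Coding transcripts held 26.3% of Hsf1, 28.7% of Hsph1, 34.6% of Hsp90ab1 and 39.4% of Hspa8 in the alignment-based tables, and the 4 genes on the right of each panel have no annotated transcript of another type.

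Across the 8 detected genes, 4 had under 50% of their TPM in coding transcripts, namely Hspa8, Hsp90ab1, Hsf1 and Hsph1. The share among all detected protein-coding genes was 42.8%, so this count was near the background. Of the 6 genes with an annotated retained-intron transcript, 4 were under 50%, beside 57.3% of 5705 such detected genes. In the read-based tables all 6 were under 50% of TPM, beside 67.7% of the 6728 such genes detected there. Hspa5 was at 46.2% and Hsp90aa1 at 47.6%. By read-based counts, coding transcripts held 87.5% of Hspa5, 85.8% of Hsp90aa1, 69.8% of Hsp90ab1 and 50.9% of Hsph1. They held 38.8% of Hspa8 and 31.3% of Hsf1. Of the alignment-based counts of Hsp90ab1 they held 69.7%. A share over all genes was not taken by counts. The intronless Hspa1a and Hspa1b cannot show such transcripts, and for Dnajb1 and Hspb1 the annotation has only coding ones.

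Ordered by mean TPM, the genes ran Hspa8, Hspa5, Hsp90ab1, Hsp90aa1, Hsf1, Hsph1, Hspa1a, Hspa1b, Dnajb1 and Hspb1. Of the 9 neighbouring pairs in that order, 6 differed by more than the SD of their difference and with the same sign in 3 of 3 libraries (exact permutation p = 0.25 each, adjusted p = 0.375 over 9 pairs). The order and its neighbouring pairs were taken from the same values, so these p-values and signs describe the order and do not test it. The widest step was between Hsf1 and Hsph1, at 2.21 ± 0.38 in log2(TPM + 1) (SD, n = 3) which as a ratio of TPM was 6.03-fold. With only coding transcripts summed the order changed. Hspa5, at a mean of 50.6 TPM, then stood above Hspa8 at 43.5, and Hsph1, at 0.727, was the lowest gene. Hsf1, at 3.93 TPM, and Hsph1 were then no longer neighbours. Hsp90aa1 and Hsf1 were not separated, with a difference of 0.21 ± 0.63 (SD, n = 3) that was negative in replicate 2 (exact permutation p = 0.75). Hspa1a and Hspa1b, and Dnajb1 and Hspb1, were not separated either, the latter differing by 0.041 ± 0.27 (SD, n = 3; exact permutation p = 1).

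**Figure D3:**
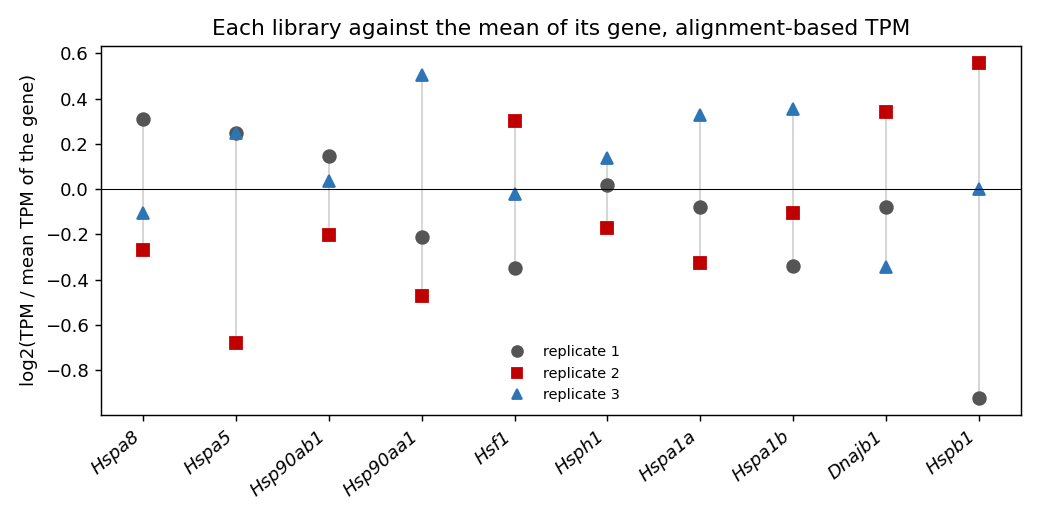
Each library's TPM relative to the mean of its gene, as log2(TPM / mean TPM), for the 10 genes in order of mean level; symbols give the replicate and grey lines join the libraries of a gene. Replicate 2 (red squares) is lowest for Hspa8, Hspa5, Hsp90ab1, Hsp90aa1, Hsph1 and Hspa1a and highest for Hsf1, Dnajb1 and Hspb1.

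No single library was lowest for all 10 genes. Hspa1b, Hsf1 and Hspb1 were lowest in replicate 1 and Dnajb1 in replicate 3. Replicate 2 was the lowest library for 6 of the 8 detected genes, where it was lowest for 20.3% of detected protein-coding genes. It was the highest library for 1 of the 8, Hsf1, where it was highest for 55.7%. Without length correction, in CPM, replicate 2 was lowest for 5 of the 8 and highest for 2, beside 19.7% and 56.8%. By the read-based tables it was lowest for 6 of 10 and highest for 3 of 10, beside 19.6% and 55.1%. Replicate 2 also had the least starting RNA and the most counts, and with 1 library at each amount these cannot be told apart from any other difference between the libraries. The spread was near that of other genes, with a median coefficient of variation of 22.8% over the 8 detected genes and 22.7% over all detected protein-coding genes. Without replicate 3 the median over the 8 genes was 14.9%.

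Much of the sequence of these families is shared with other annotated genes, which limits how surely a read can be placed. Each gene's transcripts were cut into all words of 31 bases, and the share found in another gene was over 10% for 6 of the 10 genes and under 1% for the other 4. For Hspa1a it was 65.4% and for Hspa1b 68.0%, mostly through each other. Hspb1 shared 52.3% with the pseudogene Hsp25-ps1, which had 0 counts in every library and in both kinds of table. Hsp90aa1 shared 51.4%, chiefly with the pseudogene Gm12346, which took 17.6, 27.1 and 17.9 expected counts beside the 436, 429 and 903 of Hsp90aa1. The pseudogene Gm5511, which holds 8.48% of the words of Hsp90aa1, took 70.1, 86.9 and 51.6. The 8 pseudogenes sharing words with Hsp90aa1 took 87.7, 115 and 70.6 expected counts in all, and 185, 443 and 355 in the read-based tables. Hsp90aa1 itself had 914, 907 and 1543 estimated counts there. Of the read-based pseudogene counts, 78.9, 294 and 253 were given to Gm2033, which has 0.478% of the words. Whether they came from Hsp90aa1 RNA was not tested.

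Hspa8 shared 43.5% of its words with 17 other genes, 13 of them pseudogenes. In the alignment-based tables these 13 took 4.01, 47.6 and 9.61 expected counts in all, beside 3289, 2872 and 2917 for Hspa8. The same 13 took 661, 1023 and 372 in the read-based tables. Most of that went to Gm9436, singled out after its values were seen, which has 2.42% of the words of Hspa8. It had 647, 967 and 322 estimated counts there and 0, 0 and 1 in the alignment-based tables. Whether these read-based counts came from Hspa8 RNA was not tested.

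**Figure D4:**
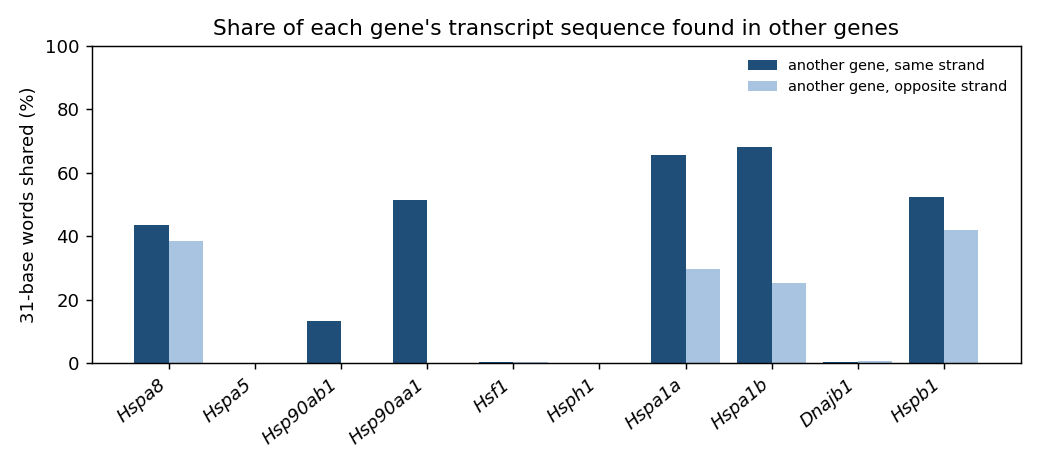
Share of each gene's 31-base words (percent) that also occur in a transcript of another GENCODE M21 gene, on the same strand (dark bars) or the opposite strand (light bars). Same-strand shares are 43.5% for Hspa8, 51.4% for Hsp90aa1, 52.3% for Hspb1, 65.4% for Hspa1a and 68.0% for Hspa1b, and under 1% for Hspa5, Hsf1, Hsph1 and Dnajb1.

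Antisense annotation adds to this, since the sources used here do not say whether counting used the strand of the reads. Words on the opposite strand of another gene made up 38.4% of Hspa8, mostly through the long noncoding RNA Gm26825, which had 0, 0 and 33.05 expected counts. They made up 41.9% of Hspb1, through Gm9817, which had 0 expected counts in every library but was given 2.24, 69.9 and 58.9 counts by the read-based tables. For Hspa1a and Hspa1b they made up 29.5% and 25.1%. Gm20481, a coding gene annotated at chr17:34969912-34972136 on the plus strand, overlaps Hspa1a and had 0 counts in every library in both kinds of table. The antisense gene Gm10501 holds 12.1% of the words of Hspa1a and 11.1% of those of Hspa1b on the opposite strand. It had 5.42, 11.9 and 9.97 expected counts, and 7.55, 14.5 and 5.68 in the read-based tables.

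Despite these differences no gene of the 10 had means that differed by over 2 times between the quantifications, where 34.8% of 12082 protein-coding genes did. Without replicate 3, 1 gene did, Hspb1. The largest ratios of read-based to alignment-based mean were 1.80 for Hspb1 and 1.68 for Hsp90aa1, and the lowest was 0.764 for Hspa1a. The read-based mean was the higher one for 6 of the 10 genes and for 84.5% of the protein-coding genes.

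The rest of the chaperone network was summarised from 8 lists with 89 genes, 79 of them outside the 10. Of these 79, 59 were detected, or 74.7%, beside 39.2% of all protein-coding genes, and their median was 8.40 TPM. In the HSP70 family 11 of 15 genes were detected. Its only other gene near Hspa8 and Hspa5 was Hspa9, the mitochondrial HSP70, at 109, 77.3 and 114 TPM in replicates 1, 2 and 3, again lowest in replicate 2. Hspa4, an HSP110 relative like Hsph1, was at 24.9 ± 4.10 TPM (SD, n = 3), above the 2.57 ± 0.272 of Hsph1. Hspa12b was the lowest, at 0.07 to 0.12 TPM, but stood at 8.68 to 19.8 TPM in the read-based tables.

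All 4 HSP90 genes were detected. Hsp90b1, which encodes GRP94 of the endoplasmic reticulum, had the highest level, 67.2, 45.2 and 51.1 TPM in replicates 1, 2 and 3, and mitochondrial Trap1 the lowest, 17.9 ± 4.58 (SD, n = 3). Of the 20 J-domain genes 17 were detected. The highest was Dnajb6, at 203, 142 and 192 TPM, followed by Dnajc7 at 96.0 ± 23.3, Dnajc13 at 87.5 ± 9.12 and Dnaja1 at 74.7 ± 12.6 (SD, n = 3). Of these 20 genes Dnaja4 alone, at 0.04 to 0.09 TPM, had a lower mean than Dnajb1. Small heat shock genes were low as a group, with 1 of 8 detected, Hspb6 at 1.06, 2.03 and 1.16 TPM, and with 0 counts for Hspb2, Hspb3, Hspb8, Cryaa and Cryab.

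The 10 chaperonin genes, which encode the folding chambers of the cytosol and mitochondria, were all detected, from Cct8 at 32.3 ± 0.586 and Cct4 at 26.9 ± 4.39 TPM to Hspe1 at 2.57 ± 0.737 (SD, n = 3). The heat shock factor list has 5 genes, among them Hsbp1, which encodes a binding protein and not a factor. Of the 5, 4 were detected, with Hsf1 the highest. Hsbp1 followed at 6.18 ± 1.50 and Hsf2 at 4.58 ± 0.717 TPM (SD, n = 3), and Hsf5 was the lowest at 0.06 to 0.14 TPM. Of 18 co-chaperone genes 12 were detected, led by Chordc1 at 45.5 ± 9.75, Ppid at 21.3 ± 4.90 and Cdc37, which brings kinases to HSP90, at 19.5 ± 1.89 TPM (SD, n = 3), while Bag2 was at 0.09 to 0.11. Of 15 endoplasmic reticulum genes 13 were detected. Below Hspa5 and Hsp90b1 came the calcium-binding chaperones Canx at 41.3 ± 5.95 and Calr at 37.2 ± 4.79 TPM (SD, n = 3), and Sdf2l1 was the lowest at 0.26 to 0.55.

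**Figure D5:**
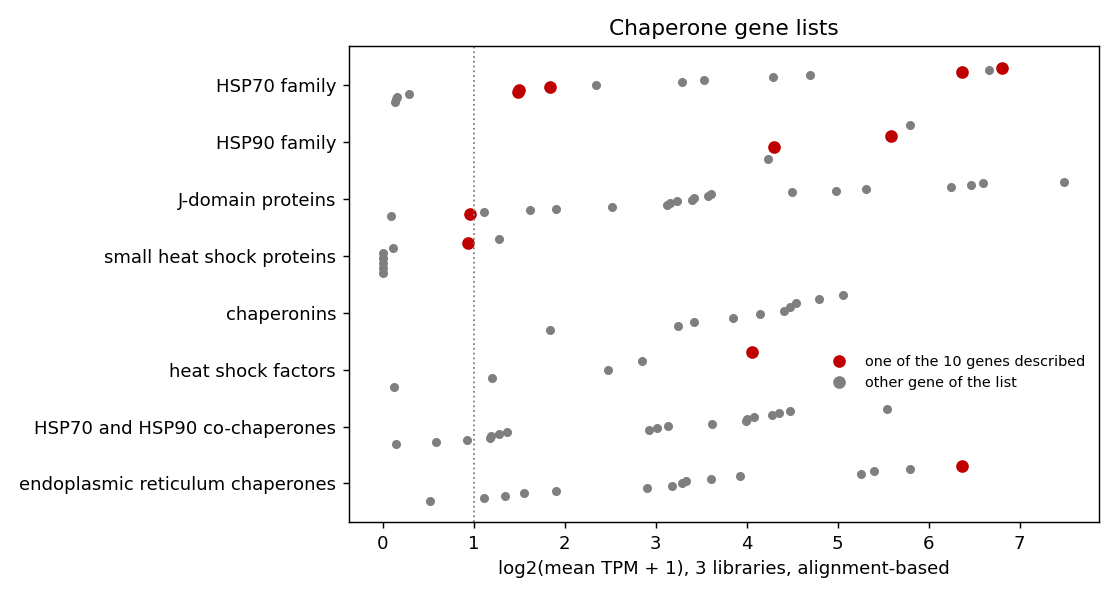
Mean alignment-based level of each gene in the 8 chaperone lists, as log2(mean TPM + 1) over 3 libraries; red points are genes among the 10 described, grey points the others, points within a list are spread vertically by rank only, and the dotted line marks 1 TPM. Hspa8 leads the HSP70 family, Hspa5 leads the endoplasmic reticulum list and is behind Hspa8 and Hspa9 in the HSP70 family, Hsf1 leads the heat shock factors, and Dnajb1 and Hspb1 sit just left of the line.

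In the lists, as in the 10 genes, the lowest and highest libraries were counted over detected genes, beside the 20.3% of all detected protein-coding genes that were lowest and the 55.7% that were highest in replicate 2. Replicate 2 was lowest for 7 of 11 HSP70 genes, 3 of 4 HSP90 genes, 8 of 13 endoplasmic reticulum genes, 5 of 17 J-domain genes, 3 of 12 co-chaperone genes and 1 of 10 chaperonin genes. It was highest for 1 of 11 HSP70 genes, 3 of 13 endoplasmic reticulum genes, 9 of 17 J-domain genes and 3 of 12 co-chaperone genes. Replicate 2 was also highest for 8 of 10 chaperonin genes and 4 of 4 genes of the heat shock factor list, Hsbp1 included. In CPM several of these counts changed, beside 19.7% and 56.8% of all detected protein-coding genes. Replicate 2 was then lowest for 6 HSP70, 10 endoplasmic reticulum, 7 J-domain and 2 co-chaperone genes. It was highest for 3 HSP70, 2 endoplasmic reticulum and 5 co-chaperone genes, and for 6 of 10 chaperonin genes, near the 56.8%. The other counts stayed the same. No difference between the lists was tested. Several genes sit in more than 1 list, and the summed level of the HSP70 list, 405, 299 and 393 TPM in replicates 1, 2 and 3, is mostly Hspa8, Hspa9 and Hspa5.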

How the data were processed

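Chromatin RNA from 3 libraries of 1 group was analysed. The text that the authors deposited beside the tables names mm10 and GENCODE M21. Programs and use of strand: not given in the sources used here. Expected counts (alignment-based) and estimated counts (read-based), as deposited, are reads per gene or transcript and can be fractional. TPM values were corrected for effective length and scaled to a fixed total per library by the authors. The deposited interval bounds, held as a signal in TPM, are credible intervals around a posterior mean TPM, whose level is not given; they cover 1 library at a time. Depth is given in the report, and floors (3 counts) cover counting error only. The intervals do not cover the spread between libraries, and which sources of error they hold within a library is not given.

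All 55536 gene identifiers matched the annotation. Read-based transcripts were summed per gene. Python 3.11.15 with pandas 2.3.3, numpy 2.4.6, Biopython 1.88 and matplotlib 3.10.9 was used. Differences between genes were taken within a library as log2(TPM + 1), a pseudocount of 1, and tested by exact two-sided sign-flip permutation with Benjamini-Hochberg adjustment. With 3 libraries no p can go below 0.25. The functions were tested on simulated data. CPM was computed from the expected counts.

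The 10 genes and the 8 chaperone lists were chosen with earlier results of these data known, so no list test was made. Of each list, the 2 to 4 highest genes, the 10 included, and the lowest are named, besides genes within or sharing exons with the 10. Alternatives were the read-based tables, posterior mean TPM, CPM, TPM rescaled to protein-coding genes, coding transcripts only, a pseudocount of 0.1, other detection limits, and each library left out.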

Additional observations from a re-analysis of the deposited data

How the results depend on the processing

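No paired analysis was possible because all libraries belong to 1 group. Of 95 alternative values of the main results, 81 stayed within the spread of the main value (for counts, within a fixed ratio) and 14 moved. The median log2 level of the 10 genes, 2.95, was 3.29 with the posterior mean TPM, 3.58 with CPM, 4.57 with TPM rescaled to protein-coding genes, 1.90 with coding transcripts only and 2.70 with a pseudocount of 0.1. Hspa8 minus the sum of Hspa1a and Hspa1b, 4.59, was 3.25 with coding transcripts. Hsp90ab1 minus Hsp90aa1, 1.33, was 0.60 with CPM and 0.61 with coding transcripts. Hspa8 minus Hspa5, 0.48, was 0.015 in the read-based tables and -0.17 with coding transcripts. Hspa8 minus Hsp90ab1, 1.20, was 0.53 in the read-based tables and 1.81 with CPM. CPM lacks the length correction and coding transcripts are fewer than all transcripts. Rescaling to protein-coding genes raises all genes of a library by the same factor, and a smaller pseudocount lowers every log2 level, both by definition. The cause of the other shifts was not tested. The heat shock element was found in 4 genes with 2 units and in 1 with 3. Leaving out 1 library in turn gave 4.35 to 4.77, 1.18 to 1.57, 0.30 to 0.67 and 1.11 to 1.27 for these 4 differences in the same order, 8 detected genes each time, 60 to 61 detected genes outside the 10, and 5 to 7 separated neighbours. The number of genes differing over 2 times between the quantifications was 0 to 1, being 1, Hspb1, without replicate 3. The median coefficient of variation of the 8 detected genes was 14.9% to 19.0%, lowest without replicate 3. For levels of single genes, 49 alternative values stayed within the spread and 31 moved. Detected genes numbered 7 with coding transcripts only, 9 at a limit of 0.5 TPM or of 10 counts, 9 with CPM and 10 with rescaled TPM. Hspb1, at 5 to 16 counts, is the gene most limited by depth.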
